A study of Mus musculus with 10 samples.

Results

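Apoptosis regulators and executors were examined in cortical RNA of 5XFAD mice with and without neuronal deletion of Idol, the gene (symbol Mylip) of an E3 ubiquitin ligase that marks the LDL receptor for degradation. The set held 40 listed mouse genes, matched by Ensembl identifier among the 53700 gene identifiers of the deposited counts. Of these genes, 26 act for cell death (pro-apoptotic), 10 act against it (anti-apoptotic) and 4 can act on either side. A total of more than 10 reads over all libraries was reached by 39 of the 40. The other gene, Ripk3, had 2 reads in all.

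The 10 libraries came from the cerebral cortex of female mice aged 4 months, 5 labelled 5XFAD and 5 labelled 5XFAD;Neu cKO. Floxed Idol is removed by a Camk2a-Cre transgene in the 5XFAD;Neu cKO mice, and the controls were 5XFAD littermates whose label gives the Camk2a-Cre and Idol part of the genotype as WT. Whether controls carried the floxed alleles without Cre, and the background strain, are not given in the sources used here. Every animal carried the 5XFAD transgenes, which model the amyloid pathology of familial Alzheimer's disease, so no library comes from a mouse without the amyloid model. Camk2a-Cre acts after birth, mainly in excitatory neurons of the forebrain, while the RNA came from whole cortex with its glia, vessels and inhibitory neurons. In such bulk RNA, fewer cells of a type and less RNA per cell cannot be told apart.

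In the intrinsic pathway of apoptosis, BH3-only proteins relay damage signals to the effectors BAX and BAK, which open the outer mitochondrial membrane unless BCL2 and its relatives hold them back. Released cytochrome c then assembles with APAF1 into the apoptosome, which activates caspase-9, and inhibitor of apoptosis proteins restrain the caspases. In the extrinsic pathway, death receptors on the cell surface activate caspase-8. Mature neurons are known for low APAF1, which restricts the intrinsic pathway in these cells.

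Reads on genes numbered 4320504 to 7466192 per library, and levels are given as CPM, counts scaled to a common library size after TMM normalization. QuantSeq libraries read each transcript near its 3′ end, so CPM were not divided by gene length. Levels of different genes also depend on which reads could be assigned to 1 gene, so their ranking is approximate. Alignments to more than 1 place, 15591048 to 23163314 per library, were not counted. The targeted gene, Mylip, was counted 45 to 108 times in the libraries labelled 5XFAD and 50 to 148 times in those labelled 5XFAD;Neu cKO (log2 fold change 0.39, SE 0.25, adjusted p = 0.777, edgeR), so its counts do not check the labels. Group names below therefore stand for libraries labelled so. All 15 microglial markers had a negative log2 fold change and 5 passed the test (Cx3cr1, Csf1r, C1qb, C1qc and Tyrobp), with a summed level of 404 to 585 CPM in 5XFAD and 301 to 363 CPM in 5XFAD;Neu cKO. Values were negative for 9 of 10 astrocyte markers, of which Gfap passed (summed level 4417 to 5160 CPM against 4276 to 4907 CPM), and for 10 of 10 oligodendrocyte markers, of which Mal passed (2118 to 3106 CPM against 1875 to 2949 CPM). All 5 red cell genes had positive values, Hba-a1 and Hbb-bs passing, with 6.34 to 51.4 CPM against 46.9 to 211 CPM in sum. Among 8 endothelial, 7 excitatory, 7 inhibitory and 4 general neuronal markers, 0 passed by edgeR, 1 general neuronal marker passed by DESeq2, and no listed marker of any cell type was at 0 in all libraries. Genes of the mitochondrial chromosome held 23.5, 24.7, 23.3, 25.1 and 20.9% of reads on genes in 5XFAD replicates 1 to 5. In 5XFAD;Neu cKO replicates 1 to 5 they held 24.7, 20.2, 20.5, 21.1 and 20.5%. The TMM factors were 0.948, 0.908, 0.986, 0.980 and 1.03 in 5XFAD and 0.972, 1.06, 1.05, 1.02 and 1.06 in 5XFAD;Neu cKO. The part of these shifts in the values below was not tested.

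No apoptosis gene passed the test of a difference between the genotypes. By the quasi-likelihood test of edgeR, Benjamini-Hochberg adjusted over 19268 genes, 0 of the 39 members passed an adjusted p of 0.05, where 0.218% of all genes did (0.0571% higher and 0.161% lower). DESeq2, which called 1.25% of the 5820 genes it gave an adjusted p, also called 0 members, and the smallest of the 11 adjusted p-values it gave them was 0.158, for Xiap. At an unadjusted p under 0.05 there were 5 members, Bcl2l2, Xiap, Apaf1, Mdm2 and Htra2, all with higher means in 5XFAD;Neu cKO. DESeq2 gave 4 at the same limit, and without 5XFAD;Neu cKO replicate 2 edgeR gave 2. The 5 genes are 12.8% of the members tested, where 7.95% of all genes reached the same limit (3.94% higher and 4.01% lower). Log2 fold changes were positive for 22 members and negative for 17, and 50.1% of all genes tested had a negative value. Their median was 0.05, against -0.00056 over all genes, whose quartiles were -0.21 and 0.24.

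**Figure D1:**
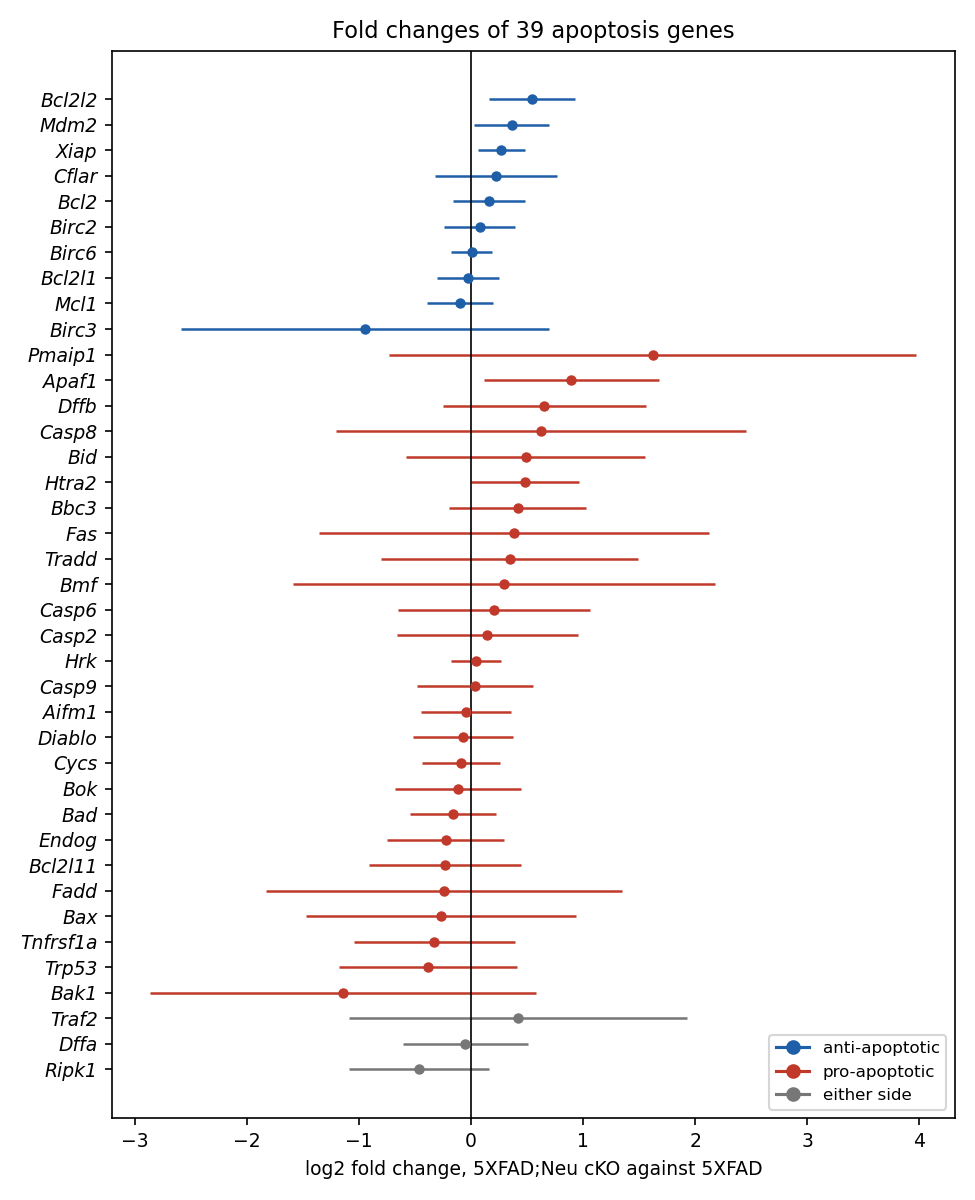
Log2 fold change of 5XFAD;Neu cKO against 5XFAD for the 39 genes tested (x axis), sorted within anti-apoptotic (blue), pro-apoptotic (red) and either-side (grey) genes. Bars give the 95% confidence interval derived from edgeR's test statistic over 5 libraries per group. The interval leaves out 0 for the same 5 genes that had an unadjusted p under 0.05 by edgeR. All 5 have positive values and none is past the adjusted threshold. The widest bars belong to genes with few reads, such as Pmaip1 and Birc3.

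By these counts, most of the abundant members were anti-apoptotic, although anti-apoptotic genes were 10 of the 40 members and pro-apoptotic genes 26. Of the 12 members with a mean of 20 CPM or more, 8 were anti-apoptotic and 4 pro-apoptotic. Of the 9 members under 2 CPM, 6 were pro-apoptotic, 1 anti-apoptotic and 2 on either side. The pro-apoptotic share of these scarce members was close to that of the whole list. Birc6, which encodes a giant ubiquitin ligase that inhibits caspases, led with 163 CPM, 21.6% of the members' summed level. Xiap (83.8 CPM), whose product blocks caspases directly, and Hrk (83.1 CPM), a BH3-only gene known from neurons, followed, and then came Mcl1 (44.8 CPM) and Bcl2l1 (40.3 CPM). At the other end were the caspase gene Casp8 (1.19 CPM), the effector gene Bak1 (1.17 CPM), the BH3-only genes Bmf (1.11 CPM) and Pmaip1 (0.650 CPM) and, last, Ripk3 (0.0469 CPM). Between these ends lay 12 members at 5 to under 20 CPM and 7 at 2 to under 5 CPM.

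**Figure D2:**
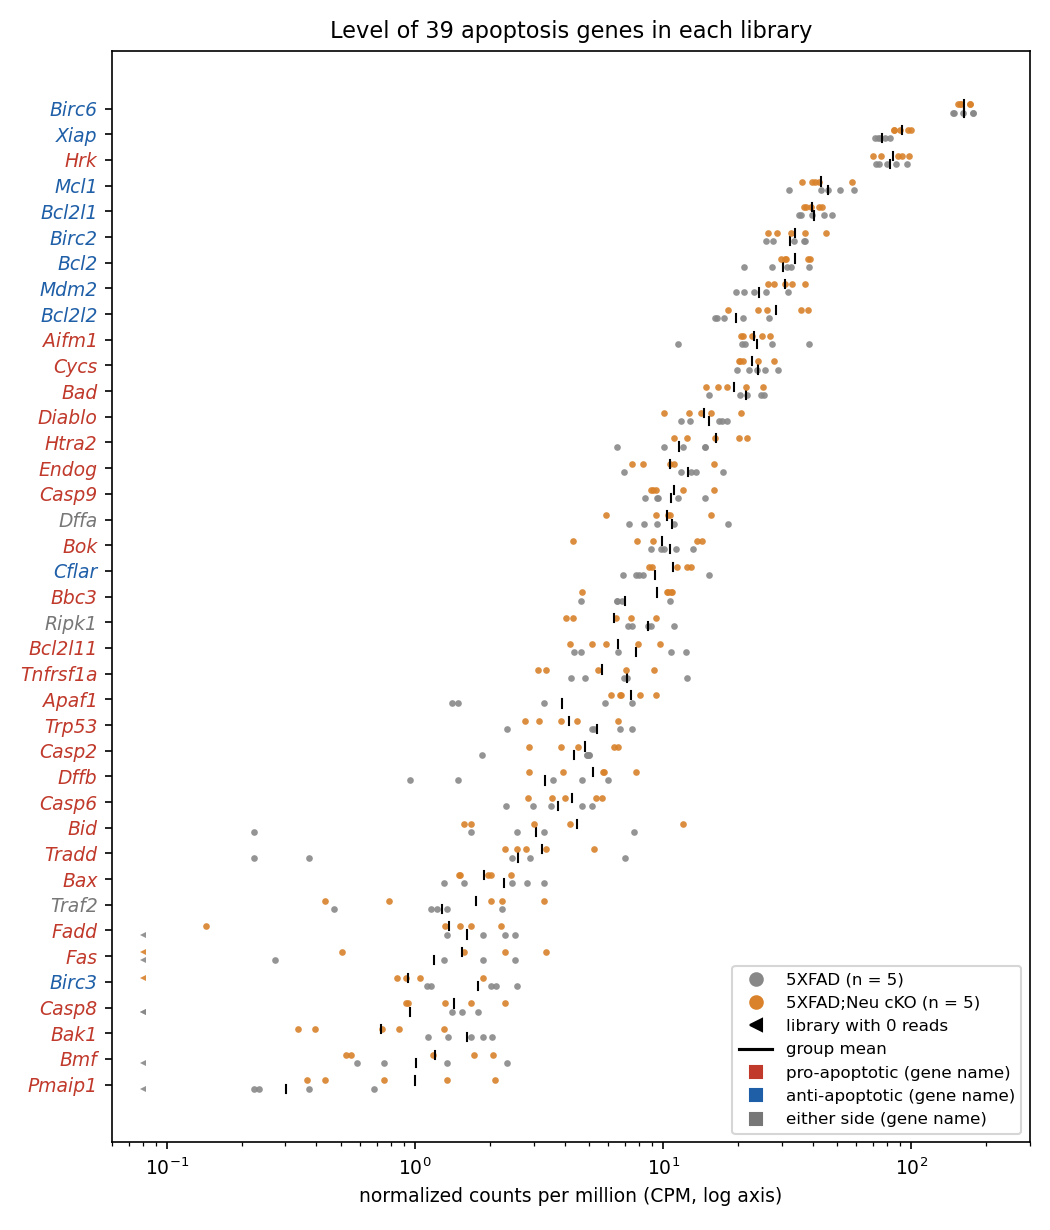
Normalized level in CPM (x axis, log scale) of the 39 genes tested in each library, grey points for 5XFAD and orange points for 5XFAD;Neu cKO (n = 5 each), with black ticks at group means, triangles at the left edge for libraries with 0 reads, and gene names in blue for anti-apoptotic, red for pro-apoptotic and grey for either side. Levels run from Pmaip1 at a mean of 0.650 CPM to Birc6 at 163 CPM, and the points of both groups overlap for every gene except Xiap.

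Precision broadly followed these levels. For 9 members, Birc6, Hrk, Xiap, Mcl1, Bcl2l1, Birc2, Bcl2, Aifm1 and Cycs, the 95% interval of the log2 fold change lay within 0.5 of 0. Mdm2 (SE 0.17), Bcl2l2 (SE 0.19) and Bad (SE 0.19) had smaller SEs than Aifm1 (SE 0.20), but estimates farther from 0. For 18 members the 95% interval reached past 1 in at least 1 direction, so for them a change of that size was not excluded by these libraries. How far the widths come from read depth or from spread between libraries was not tested.

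Summed over each side, the pro-apoptotic genes stood at 281, 284, 296, 248 and 237 CPM in 5XFAD replicates 1 to 5 and at 277, 299, 281, 266 and 261 CPM in 5XFAD;Neu cKO replicates 1 to 5. The anti-apoptotic genes summed to 427, 433, 447, 459 and 448 CPM in 5XFAD and to 481, 479, 512, 426 and 488 CPM in 5XFAD;Neu cKO. On the anti-apoptotic side, 4 of the 5 cKO libraries were above every control, and replicate 4 was below them all. The means were 269 ± 25.5 against 277 ± 14.7 CPM (SD, n = 5 each) for the pro-apoptotic genes and 443 ± 12.9 against 477 ± 31.4 CPM for the anti-apoptotic genes, and both sides overlapped between the groups.

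Divided within each library, the pro- over anti-apoptotic ratio was 0.658, 0.657, 0.664, 0.541 and 0.528 in 5XFAD and 0.577, 0.623, 0.548, 0.624 and 0.535 in 5XFAD;Neu cKO. Its mean was 0.610 ± 0.0685 in 5XFAD and 0.581 ± 0.0417 in 5XFAD;Neu cKO (SD, n = 5 each). All 5 cKO libraries were below the 3 higher controls and 4 of them above the 2 lower ones, so the groups overlapped, and the difference in mean log2 ratio (-0.06) was smaller than the SD of either group (0.17 in 5XFAD and 0.10 in 5XFAD;Neu cKO). The sums lean on abundant genes. Without Birc6 alone, the anti-apoptotic genes summed to 280.3 ± 15.6 CPM in 5XFAD and 314 ± 26.2 CPM in 5XFAD;Neu cKO. The pro-apoptotic means were 269 and 277 CPM. The ratio was then 0.964 ± 0.113 in 5XFAD, where replicates 1 and 2 were above 1, and 0.884 ± 0.0767 in 5XFAD;Neu cKO, where the highest was 0.979. Without Birc6 and Hrk, the most abundant gene of each side, the ratio was 0.672 ± 0.0794 in 5XFAD and 0.615 ± 0.0552 in 5XFAD;Neu cKO. Gene by gene, 14 of 26 pro-apoptotic members had positive and 12 negative log2 fold changes (median 0.04), and 7 of 10 anti-apoptotic members had positive and 3 negative values (median 0.12). No test was run on these sums, ratios and medians, since the genes were chosen with earlier results of these data known.

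**Figure D3:**
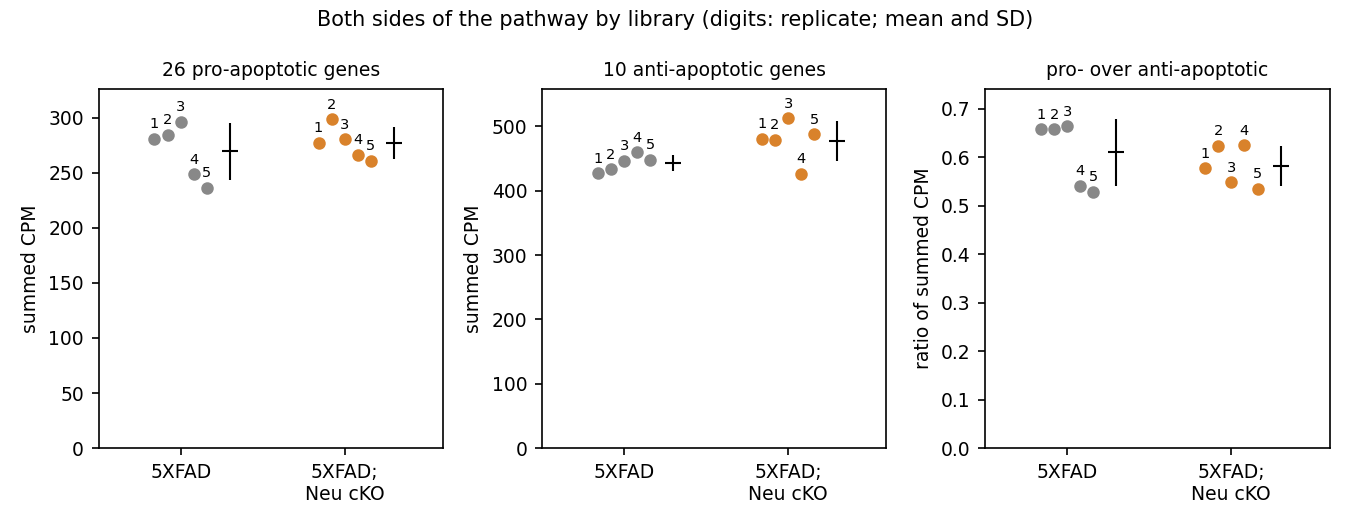
Summed CPM of the 26 pro-apoptotic genes (left), summed CPM of the 10 anti-apoptotic genes (middle) and their ratio (right) in each of the 5 5XFAD (grey) and 5 5XFAD;Neu cKO (orange) libraries, with the replicate number above each point and a cross giving mean and SD. The ratio is 0.535 to 0.624 in 5XFAD;Neu cKO and 0.528 to 0.664 in 5XFAD, where replicates 4 and 5 sit apart below the other 3.

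Of the 3 effectors, whose products permeabilize the outer mitochondrial membrane, Bax and Bak1 were low. All 3 had negative log2 fold changes that did not pass the test. Bax, encoding the effector that neurons mainly rely on, stood at 3.29, 2.82, 2.45, 1.30 and 1.57 CPM in 5XFAD and 1.496, 2.02, 1.97, 1.51 and 2.44 CPM in 5XFAD;Neu cKO. The control range contained all 5 cKO values (log2 fold change -0.27, SE 0.60, adjusted p = 0.974, edgeR). Bax had 7 to 18 reads per library in 5XFAD and 8 to 17 in 5XFAD;Neu cKO. Bak1, encoding the second effector, was at 1.36, 1.88, 2.04, 1.68 and 1.12 CPM in 5XFAD and 1.31, 0.736, 0.394, 0.337 and 0.862 CPM in 5XFAD;Neu cKO. Apart from replicate 1, every cKO library was below every control for Bak1. The log2 fold change was -1.14 with an SE of 0.86 (unadjusted p = 0.188 and adjusted p = 0.851, edgeR), while the exact two-sided permutation test of log2 CPM over 252 relabellings gave an unadjusted p of 0.0159. These levels rest on 5 to 15 reads per library in 5XFAD and 2 to 7 in 5XFAD;Neu cKO. Bok, another relative with its own mode of regulation, was the most abundant effector at 10.7 ± 1.64 CPM in 5XFAD and 9.85 ± 4.17 CPM in 5XFAD;Neu cKO (log2 fold change -0.11, SE 0.28).

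Among the 7 BH3-only genes, which encode the damage sensors upstream of the effectors, 5 had positive and 2 negative log2 fold changes, and 0 passed the test. Bcl2l11, encoding BIM, a mediator of neuronal death on loss of trophic support, was at 4.65, 6.57, 4.35, 12.3 and 10.8 CPM in 5XFAD and 9.72, 5.15, 4.20, 7.91 and 5.89 CPM in 5XFAD;Neu cKO. The groups overlapped almost completely, and the 2 highest values were 5XFAD replicates 4 and 5 (log2 fold change -0.23, SE 0.34, adjusted p = 0.954, edgeR). Hrk was the most evenly measured of them, at 81.7 ± 9.86 CPM in 5XFAD and 84.5 ± 11.3 CPM in 5XFAD;Neu cKO, with a log2 fold change of 0.05 and a 95% interval from -0.18 to 0.27. Bad, whose product binds BCL2-like proteins when growth factor signals fail, was at 21.5 ± 4.10 and 19.2 ± 4.15 CPM (log2 fold change -0.16, SE 0.19). Of the p53-induced members, Bbc3, encoding PUMA, was at 7.02 ± 2.18 and 9.44 ± 2.65 CPM (log2 fold change 0.42, SE 0.30, adjusted p = 0.839, edgeR), and Pmaip1, encoding NOXA, had 0 to 5 reads per 5XFAD library and 2 to 16 per 5XFAD;Neu cKO library (log2 fold change 1.62, SE 1.17, adjusted p = 0.836, edgeR). Bid, which links death receptors to mitochondria, ranged from 0.224 to 7.61 CPM in 5XFAD and from 1.58 to 11.96 CPM in 5XFAD;Neu cKO, and Bmf from 0 to 2.35 and from 0.525 to 2.06 CPM.

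The 4 BCL2-like guardians, which hold the effectors in check, had 2 positive and 2 negative log2 fold changes. Bcl2l2, encoding BCL-W, a survival protein of adult neurons, was at 26.7, 16.4, 20.9, 17.5 and 16.2 CPM in 5XFAD and 24.1, 26.3, 35.8, 18.2 and 38.2 CPM in 5XFAD;Neu cKO. Replicates 3 and 5 of the cKO group were above every control and the other 3 lay among them, so the groups overlapped. The means were 19.6 ± 4.44 and 28.5 ± 8.35 CPM (SD, n = 5 each), a log2 fold change of 0.55 with an SE of 0.19, the smallest adjusted p of all members (0.373, unadjusted 0.00584, edgeR) and an exact permutation p of 0.0714. Bcl2 itself was at 27.3, 21.1, 31.7, 38.6 and 32.8 CPM in 5XFAD and 31.2, 38.4, 39.1, 30.0 and 31.0 CPM in 5XFAD;Neu cKO. The cKO values lay within the range of the controls except for 39.1 CPM (log2 fold change 0.16, SE 0.16, adjusted p = 0.898, edgeR).

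Bcl2l1, encoding BCL-XL, a guardian on which adult neurons rely, was at 39.7, 44.6, 47.8, 35.8 and 35.2 CPM in 5XFAD and 42.3, 36.8, 39.4, 37.5 and 43.7 CPM in 5XFAD;Neu cKO. All 5 cKO values fell inside the control range, and the 95% interval of the log2 fold change (-0.03) ran from -0.30 to 0.25. Mcl1, encoding a guardian with rapid turnover, was at 58.5, 32.1, 43.1, 51.4 and 46.2 CPM in 5XFAD and 57.4, 42.5, 40.8, 36.2 and 39.9 CPM in 5XFAD;Neu cKO. Here too the control range held every cKO value (log2 fold change -0.10, 95% interval -0.39 to 0.19). The often used ratio of Bax to Bcl2 was 0.121, 0.133, 0.0773, 0.0338 and 0.0479 in 5XFAD and 0.0479, 0.0526, 0.0503, 0.0506 and 0.0787 in 5XFAD;Neu cKO, so 2 controls were above every cKO library, 1 was below them all, and the groups overlapped. With 7 to 18 Bax reads per 5XFAD library and 8 to 17 per 5XFAD;Neu cKO library, the order of single libraries is uncertain.

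Of the apoptosome and caspase genes, 5 of 6 had positive log2 fold changes and 0 passed the test. Apaf1, the scaffold of the apoptosome, was at 3.29, 1.41, 7.47, 1.49 and 5.84 CPM in 5XFAD and 6.73, 9.38, 6.70, 8.08 and 6.18 CPM in 5XFAD;Neu cKO. The cKO libraries were close together, while the controls fell into 3 low values and 2 that reached toward or into the cKO range. Apaf1 means were 3.90 ± 2.69 and 7.41 ± 1.31 CPM (SD, n = 5 each), a log2 fold change of 0.90 with an SE of 0.39 (unadjusted p = 0.0248 and adjusted p = 0.528, edgeR, and exact permutation p = 0.0476). Behind them stood 6 to 55 reads per library in 5XFAD and 36 to 51 in 5XFAD;Neu cKO.

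Cycs, encoding the cytochrome c that leaves the mitochondria, was at 19.8, 29.1, 23.9, 25.7 and 22.2 CPM in 5XFAD and 28.04, 20.4, 20.2, 20.9 and 24.0 CPM in 5XFAD;Neu cKO. Its groups covered the same range (log2 fold change -0.09, SE 0.18). Casp9, the initiator caspase of the apoptosome, was at 14.7, 8.45, 11.4, 9.51 and 9.43 CPM in 5XFAD and 11.96, 16.002, 9.32, 8.92 and 9.05 CPM in 5XFAD;Neu cKO. In both groups 2 libraries stood above the other 3, which lay close together (log2 fold change 0.04, SE 0.26). Casp8, the initiator caspase of death receptors, was at 1.55, 1.41, 0, 0 and 1.80 CPM in 5XFAD and 0.935, 0.920, 1.31, 1.68 and 2.30 CPM in 5XFAD;Neu cKO. The 2 zeros were controls, and the other 3 controls lay inside the cKO range, with at most 8 reads per control library and 16 per cKO library (log2 fold change 0.62, SE 0.91, adjusted p = 0.955, edgeR). Casp2, an initiator caspase with nuclear roles, was at 4.36 ± 1.40 and 4.82 ± 1.58 CPM (log2 fold change 0.15, SE 0.40), and Casp6, an executioner caspase linked to axon degeneration, at 3.75 ± 1.18 and 4.28 ± 1.18 CPM (log2 fold change 0.21, SE 0.43).

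Of the 4 other factors released by mitochondria, Htra2 had a positive log2 fold change and the other 3 negative ones. Htra2, a mitochondrial protease that binds inhibitor of apoptosis proteins once released, was at 12.02, 10.1, 14.7, 14.7 and 6.51 CPM in 5XFAD and 11.0, 16.2, 20.2, 12.5 and 21.7 CPM in 5XFAD;Neu cKO. Replicates 2, 3 and 5 of the cKO group were above every control and the other 2 lay among them (log2 fold change 0.49, SE 0.24, unadjusted p = 0.0487 and adjusted p = 0.625, edgeR, and exact permutation p = 0.111). Htra2 shares exonic bases with Loxl3 and Aup1 on the other strand, and the strand setting of the counting is not given in the sources used here. Loxl3, which overlaps 370 of the last 500 bases of Htra2, was at 2.59 and 1.45 CPM (log2 fold change -0.83, SE 0.71, adjusted p = 0.871, edgeR). Aup1, which overlaps none of them, was at 24.6 and 25.5 CPM (log2 fold change 0.05). Diablo, encoding the SMAC antagonist of XIAP, was at 15.3 ± 2.83 and 14.6 ± 3.89 CPM (log2 fold change -0.07, SE 0.22). Endog, a mitochondrial nuclease, was at 12.5 ± 3.75 and 10.7 ± 3.31 CPM (log2 fold change -0.23, SE 0.26), and the end of its transcript overlaps Spout1 on the other strand. Aifm1, a mitochondrial flavoprotein that acts in caspase-independent death, was at 23.9 ± 9.97 and 23.3 ± 2.78 CPM, with controls spread from 11.5 to 38.6 CPM.

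Inhibitors of apoptosis held the most abundant member and the only one whose groups did not overlap. Xiap was at 71.1, 73.4, 78.1, 74.7 and 82.4 CPM in 5XFAD and 85.1, 97.3, 100.04, 85.5 and 90.2 CPM in 5XFAD;Neu cKO. Every cKO library was above every control, with the nearest pair at 82.4 and 85.1 CPM, and 1.3% of all genes tested (0.576% higher and 0.721% lower) were separated in the same way. Xiap means were 75.96 ± 4.38 and 91.6 ± 6.82 CPM (SD, n = 5 each), a log2 fold change of 0.27 with an SE of 0.11 and a 95% interval from 0.06 to 0.48. The unadjusted p was 0.0127 and the adjusted p 0.449 by edgeR, and the exact permutation p was 0.00794, the smallest this design can give. Xiap lies on chromosome X of GRCm39 at 41148481 to 41198541 and shares no exonic bases with another annotated gene.

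Birc6 was at 147, 178, 149, 177 and 162 CPM in 5XFAD and 172, 158, 173, 154 and 157 CPM in 5XFAD;Neu cKO. The cKO values fell inside the control range, and the log2 fold change of 0.01 had the narrowest 95% interval of the members, from -0.17 to 0.19. Birc2, encoding cIAP1, a ubiquitin ligase of the TNF receptor complex, was at 32.3 ± 5.19 and 34.1 ± 7.49 CPM (log2 fold change 0.08, SE 0.16). Its neighbour on chromosome 9, Birc3, encoding cIAP2, was at 1.16, 2.11, 2.58, 1.12 and 2.02 CPM in 5XFAD and 1.87, 0.920, 1.05, 0.841 and 0 CPM in 5XFAD;Neu cKO. For Birc3, 4 of the 5 cKO libraries were below every control (log2 fold change -0.94, SE 0.82, unadjusted p = 0.254 and adjusted p = 0.872, edgeR, and exact permutation p = 0.0476), on 6 to 19 reads per control library and 0 to 10 per cKO library.

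**Figure D4:**
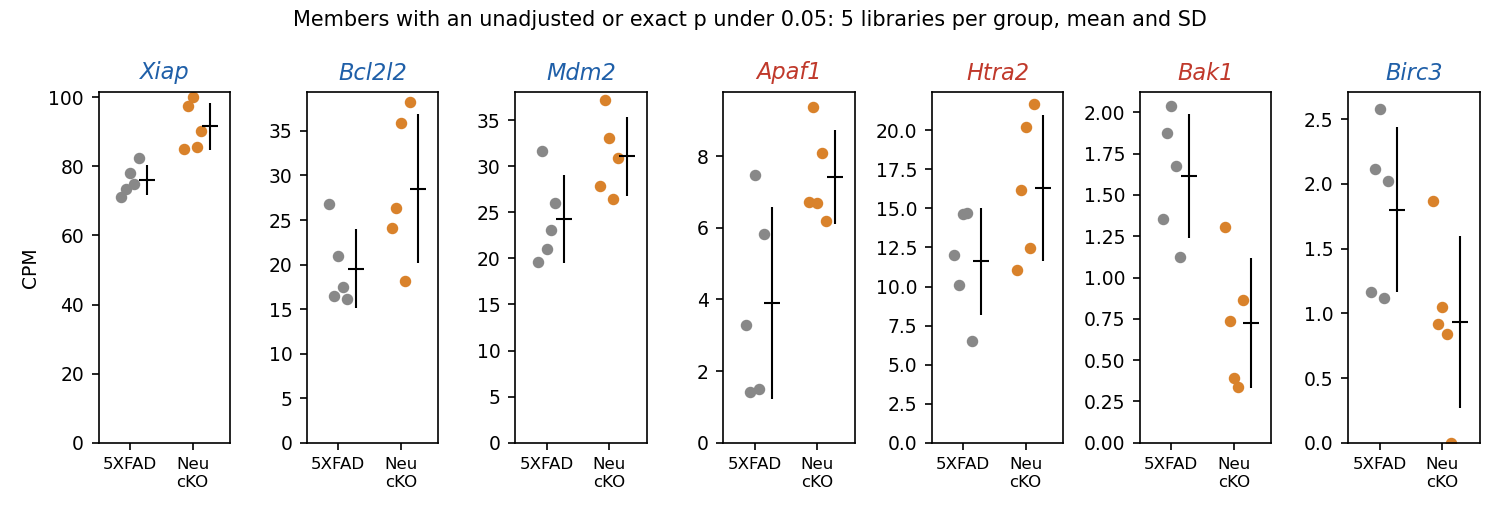
Level in CPM (y axis, from 0, scaled per panel) of the 7 genes with an unadjusted or exact p under 0.05 in each 5XFAD (grey) and 5XFAD;Neu cKO (orange) library, with a cross for mean and SD (n = 5 each) and gene names in blue for anti-apoptotic and red for pro-apoptotic genes. Xiap is the only panel without overlap, Bcl2l2, Mdm2, Apaf1 and Htra2 have higher cKO means, and Bak1 and Birc3, at under 3 CPM in every library, have lower ones. Bak1 and Birc3 enter by the exact test alone, for which no share over all genes was computed.

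In the death receptor branch, 0 genes passed the test. Tnfrsf1a, encoding a receptor for TNF, was at 7.13 ± 3.23 CPM in 5XFAD and 5.64 ± 2.55 CPM in 5XFAD;Neu cKO (log2 fold change -0.33, SE 0.36). Fas, a receptor of cytotoxic signals, was at 0 in 1 library of each group and reached 2.52 CPM in 5XFAD and 3.37 CPM in 5XFAD;Neu cKO. The adaptor genes Fadd and Tradd were at 1.61 ± 1.01 and 1.37 ± 0.763 CPM and at 2.60 ± 2.76 and 3.26 ± 1.18 CPM. Cflar, encoding c-FLIP, the decoy that blocks caspase-8, was at 7.95, 7.74, 15.4, 6.90 and 8.30 CPM in 5XFAD and 12.9, 9.01, 12.5, 8.75 and 11.3 CPM in 5XFAD;Neu cKO. Every cKO library was above 4 of the 5 controls and below control replicate 3 (log2 fold change 0.22, SE 0.27, adjusted p = 0.933, edgeR).

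Ripk1, a kinase that can signal survival, apoptosis or necroptosis, was at 11.0, 7.51, 8.69, 8.95 and 7.18 CPM in 5XFAD and 9.35, 4.05, 6.43, 7.40 and 4.31 CPM in 5XFAD;Neu cKO. For Ripk1, 3 of the 5 cKO libraries were below every control and replicate 1 was above 4 of them (log2 fold change -0.46, SE 0.31, unadjusted p = 0.143 and adjusted p = 0.807, edgeR). Ripk3, its partner in necroptosis, had 2 reads in 5XFAD replicate 2 and 0 in the other 9 libraries. A count of 0 over the cKO group, which would still allow 3 reads, sets a limit of 0.0990 CPM for Ripk3, a limit that covers counting error only. Traf2, an adaptor that recruits cIAP1 to TNF receptors, was at 1.29 ± 0.631 and 1.76 ± 1.16 CPM (log2 fold change 0.42, SE 0.75).

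Trp53, encoding p53, was at 5.23, 2.35, 7.47, 6.71 and 5.16 CPM in 5XFAD and 4.49, 2.76, 3.15, 6.56 and 3.88 CPM in 5XFAD;Neu cKO. The control range contained the cKO values, 4 of which were below all controls but replicate 2 (log2 fold change -0.38, SE 0.40, adjusted p = 0.906, edgeR). Mdm2, encoding the ubiquitin ligase that degrades p53 and is itself a p53 target, was at 19.6, 31.7, 21.1, 23.1 and 26.03 CPM in 5XFAD and 27.9, 37.2, 33.1, 26.4 and 30.9 CPM in 5XFAD;Neu cKO. Every cKO library exceeded 4 of the 5 controls, and control replicate 2 lay among the cKO values. Mdm2 means were 24.3 ± 4.79 and 31.1 ± 4.27 CPM (SD, n = 5 each), a log2 fold change of 0.36 with an SE of 0.17 (unadjusted p = 0.0339 and adjusted p = 0.562, edgeR, and exact permutation p = 0.0476). Downstream of the caspases, Dffb, the nuclease that cuts chromosomal DNA, was at 3.35 ± 2.13 and 5.20 ± 1.87 CPM (log2 fold change 0.65, SE 0.45, adjusted p = 0.819, edgeR), and Dffa, its chaperone and inhibitor, at 10.9 ± 4.38 and 10.4 ± 3.49 CPM (log2 fold change -0.05, SE 0.28).

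Of 61 further genes of the pathway that were matched by symbol, 49 had enough reads and 0 passed the test by edgeR or DESeq2. At an unadjusted p under 0.05 by edgeR there was 1, Ngfr, encoding the p75 neurotrophin receptor, at 6.502 ± 1.27 and 3.56 ± 2.03 CPM (log2 fold change -0.87, SE 0.40, unadjusted p = 0.0353 and adjusted p = 0.566, edgeR, and exact permutation p = 0.0397). By the exact permutation test there were 2, Ngfr and Mapk8, a count for which no share over all genes was computed. By edgeR, Ngfr alone is 2.04% of those tested, against 7.95% of all genes. Values were positive for 22 and negative for 27, with a median of -0.05. All 4 further inhibitor of apoptosis genes tested had negative values, as did 4 of 5 BCL2 family genes, while 7 of 9 stress kinase and transcription factor genes had positive ones. The inhibitor genes were at a median of 0.736 CPM (median SE 1.22), each with 0 reads in some libraries, so their signs are uncertain. Medians were -0.08 (median SE 0.16) for the BCL2 family genes, of which Bcl2a1b had 25 reads in all, and 0.07 (median SE 0.15) for the stress genes. Of 11 tested target genes of p53, 6 had positive and 5 negative values, Zmat3, the most abundant, standing at 101 ± 12.2 and 97.6 ± 8.35 CPM.

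The other 4 of the 5 most abundant were 3 JNK kinase genes and a Fas inhibitor. Mapk10, whose product is the neuronal JNK, was at 187 ± 12.1 and 178 ± 15.7 CPM (log2 fold change -0.07, SE 0.09), Mapk9 at 89.2 ± 7.54 and 91.1 ± 6.69 CPM, and Mapk8 at 91.2 ± 5.45 and 102 ± 4.93 CPM (log2 fold change 0.16, SE 0.10, adjusted p = 0.777, edgeR, and exact permutation p = 0.0159, with overlapping groups). Faim2, encoding an inhibitor of Fas signalling in neurons, was at 129 ± 8.61 and 117 ± 9.50 CPM (log2 fold change -0.14, SE 0.09, adjusted p = 0.800, edgeR). The death ligand gene Tnf and the BCL2 family genes Bik, Bcl2l14 and Bcl2a1d had 0 reads in all 10 libraries, which sets a limit of 0.0520 CPM for each.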

How the data were processed

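The authors made QuantSeq 3′ libraries, trimmed adapters and poly(A) tails, aligned reads to GRCm39 with STAR 2.7.3a and ran htseq-count on Ensembl genes. The deposited values are these counts, unnormalized. The 21 members that share exonic bases with another gene are less certain. For overlaps on opposite strands this depends on the strand setting of the counting, which is not given in the sources used here. Overlaps on the same strand, such as those of Diablo with Gm49027 and of Bcl2l2 with Gm20521, remain under any strand setting. Reads on no gene (31.3% to 39.9% of those kept) entered neither sizes nor tests.

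Symbols came from the GENCODE annotation of GRCm39 (52610 of 53700 identifiers). The symbol Ddit3, on the list of further pathway genes, belonged to more than 1 identifier and was not analysed. A gene needed more than 10 reads in all to be tested. Groups, taken from the sample titles, were compared with edgeR 4.0.16 (R 4.3.3, TMM, quasi-likelihood test, group as the only term) and Benjamini-Hochberg adjustment over 19268 genes with a threshold of 0.05, after testing the steps on simulated data. For single genes, the mean log2 CPM also went into a two-sided exact permutation test (prior count 2 and 252 relabellings). SEs were derived from the log2 fold change and the F statistic of edgeR's test, and intervals at 95% from these SEs. An interval that leaves out 0 therefore repeats an unadjusted p under 0.05 by edgeR and is no separate evidence. The labels number the replicates without naming animals, so p-values measure the spread between these libraries. Each pair of libraries of a group differed by more than sampling noise (chi-square per degree of freedom of at least 5.87).

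The alternatives were DESeq2 1.42.0, its size factors, edgeR's filterByExpr, no filter, a robust fit, no mitochondrial genes, a block for the replicate number and fits without 1 library. Other weightings of the pro- over anti-apoptotic ratio, without Birc6, without Birc6 and Hrk, or by mean log2 CPM, were added after seeing the data. Values in every library are given for members under an unadjusted p of 0.05, members whose groups do not overlap and a list set by role, and for Birc3 after its values were seen. Of the further pathway genes, those past the threshold or under an unadjusted p of 0.01 and the 5 most abundant were to be named, and Ngfr and the genes without reads were added after their values were seen. Some genes of the lists are not reported here by name. The members and lists were chosen with earlier results of these data known.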

Additional observations from a re-analysis of the deposited data

Results flagged for a closer look

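Among 78 groups of 5 libraries, 1 group for each gene and genotype, 4 held a library far from the other 4 by Dixon's criterion (a gap over 0.71 of the group's range). Chance gives about 1 in 20 groups, or 3.9. Bid was at 11.96 CPM (65 reads) in 5XFAD;Neu cKO replicate 2, with the next highest at 4.21 CPM, and without that library its log2 fold change went from 0.49 to -0.27. Bbc3 was at 4.71 CPM (28 reads) in 5XFAD;Neu cKO replicate 4, where the other 4 lay between 10.4 and 10.9 CPM. Casp2 was at 1.86 CPM (10 reads) in 5XFAD replicate 4, and the others lay between 4.93 and 5.04 CPM. Cflar was at 15.4 CPM (113 reads) in 5XFAD replicate 3, above a next highest of 8.30 CPM, and without that library its log2 fold change went from 0.22 to 0.50 (adjusted p = 0.707, edgeR).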

How the results depend on the processing

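No member passed the adjusted threshold under any alternative, and the smallest adjusted p of a member was 0.158 with all libraries and 0.203 with 1 left out. Of 265 values of single members under alternatives with all libraries, 264 kept their sign. The exception was Aifm1 (0.029 with the replicate block). The count of all genes past the threshold, 42, was 73 by DESeq2, 103 with no filter on low counts and 112 with the replicate block. Same-numbered libraries did not deviate together (r from -0.08 to 0.05, and 1 of 5 matched its own number best), so the number was not taken as a pairing. The block left the count of members called at 0 and of members under an unadjusted p of 0.05 at 5. With filterByExpr the median of the pro-apoptotic genes was -0.0049, and by mean log2 CPM in place of sums, chosen after seeing the data, the pro- against anti-apoptotic difference was 0.016.

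Leaving out 1 library at a time kept members past the threshold at 0, and gave 2 (without 5XFAD;Neu cKO replicate 2) to 5 members under an unadjusted p of 0.05, 3 without 5XFAD replicate 1, 2 or 4 or 5XFAD;Neu cKO replicate 3, and 20 to 23 members with positive values. All genes past the threshold numbered from 26 (without 5XFAD replicate 2) to 72 (without 5XFAD;Neu cKO replicate 1), with 27 without 5XFAD;Neu cKO replicate 4 or 5. The median of pro-apoptotic genes ran from -0.058 to 0.12, that of anti-apoptotic genes from 0.049 to 0.17, and the difference in log2 ratio from -0.11 to -0.031. Bcl2l2 and Xiap stayed under an unadjusted p of 0.05 in 10 of 10 such fits, Apaf1 in 7, Mdm2 in 5 and Htra2 in 4. The sign turned in 25 of 390 member values. The ranges of the log2 fold change of those members were -0.21 to 0.19 for Aifm1, -0.074 to 0.041 for Bcl2l1, -0.41 to 0.0060 for Bcl2l11, -0.27 to 1.18 for Bid, -0.044 to 0.16 for Birc2, -0.029 to 0.038 for Birc6, -0.047 to 0.87 for Bmf, -0.30 to 0.081 for Bok, -0.047 to 0.29 for Casp2, -0.13 to 0.18 for Casp9, -0.25 to 0.21 for Dffa, -0.22 to 0.038 for Diablo, -0.56 to 0.050 for Fadd, -0.092 to 0.85 for Fas and -0.0089 to 0.11 for Hrk. Of members that kept their sign, the range was -0.56 to -0.047 for Tnfrsf1a, 0.066 to 0.71 for Traf2 and 0.059 to 0.26 for Bcl2. Depth limits the members under 5 CPM most, whose levels rest on few reads per library.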
